A study of Rattus norvegicus with 6 samples.

Results

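The genes described here are the beta subunits of the sodium pump (Atp1b1, Atp1b2, Atp1b3), 4 FXYD regulators of the pump (Fxyd1, Fxyd2, Fxyd4, Fxyd5) and Slc12a2, the sodium-potassium-chloride cotransporter NKCC1. They were chosen as every probe set that the platform annotation gives with 1 of these symbols and no other. This gave 10 probe sets of 8 genes, out of 31042 probe sets tested and 14217 genes with a single symbol. The levels were read on 6 Affymetrix rat expression arrays of male Sprague-Dawley rats, 3 arrays for each of 2 cell fractions of the renal inner medulla. The IMCD fraction was enriched in inner medullary collecting duct cells by low-speed centrifugation of tissue that collagenase B and hyaluronidase had digested at 37 °C over 75 min. The nonIMCD fraction was spun down from the supernatant that remained. It is a mixture of cells, and principal cell markers of the collecting duct were bright in it too. Every rat, in both groups, had been given 1 mg of furosemide into the peritoneum 30 min before death. Furosemide is a loop diuretic that blocks sodium-potassium-chloride cotransporters, and no array of untreated rats was used here. The labels give an age of 6 weeks for IMCD replicate 1 and of 10 weeks for the other 5 arrays. The study used 7 rats, so the preparations were in part pooled or shared in a way the labels do not give, and the p-values measure the spread between arrays.

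The sodium pump, or Na,K-ATPase, drives sodium out of the cell and potassium into it, and in a tubule cell it sits in the basolateral membrane, where it powers sodium reabsorption. A catalytic alpha subunit works only with a glycosylated beta subunit, which carries it to the membrane. FXYD proteins are small single-span proteins that attach to the pump and change its affinity for sodium or potassium, each in its own set of tissues. NKCC1 takes up sodium, potassium and chloride across the basolateral membrane on the gradient that the pump makes.

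The 8 genes divided between the fractions. Fxyd5 and Atp1b2 were much lower in IMCD, by 15.9-fold and 5.05-fold in mean intensity. Slc12a2 and Fxyd2 were lower by 1.58-fold and 1.45-fold, and Fxyd4 was higher by 1.78-fold. Atp1b1, Atp1b3 and Fxyd1 did not pass the test. In limma's fit over all probe sets, with a Benjamini-Hochberg adjusted p under 0.05 as the threshold, 1 gene was thus higher, 4 were lower and 3 did not pass. The calls of Fxyd5 and Atp1b2 held without any 1 array. Fxyd2 lost its call without any 1 array, Slc12a2 without any 1 but IMCD replicate 3, and Fxyd4 without nonIMCD replicate 1. Among all genes, each taken by its brightest probe set, 25.8% were called, 10.0% higher and 15.7% lower. Of the 10 probe sets 5 were called, 1 higher and 4 lower, against 22.0% of all probe sets (8.58% higher and 13.4% lower). Between the fractions the arrays were fully apart for 8 of the 10 probe sets, against 42.2% of all probe sets. The median log2 difference, IMCD minus nonIMCD, was -0.60 over the 8 genes and -0.09 over all genes.

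**Figure D1:**
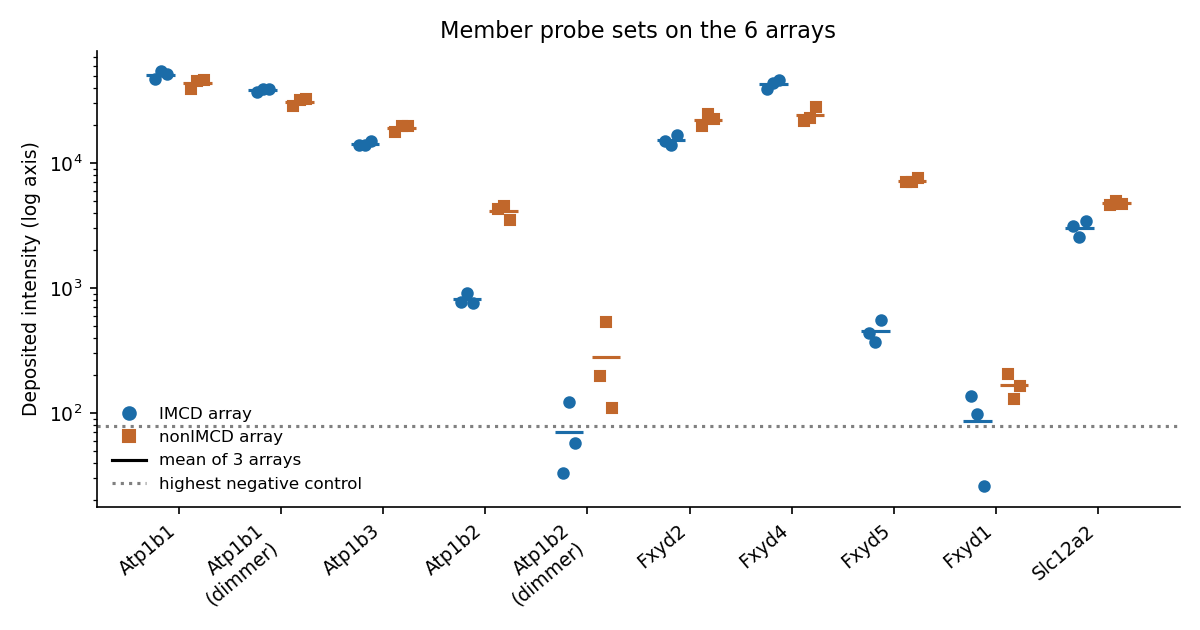
Deposited intensity (log axis) of the 10 probe sets on each array, with circles for IMCD arrays, squares for nonIMCD arrays, a line at the mean of 3 arrays and a dotted line at the highest negative control (78.4). Fxyd5 sits between 369 and 558 on the IMCD arrays and between 7010.32 and 7587 on the nonIMCD arrays, whereas Fxyd4 is the 1 gene called higher in IMCD.

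Intensities are the authors' values on a linear scale, and log2 differences were computed from log2(intensity + 16), which understates the change of dim probe sets. The brightness of a probe set also depends on its probes, so levels of different genes are not compared here. The arrays had been scaled to 1 trimmed mean, 1000.31 to 1000.37. Centring each array on its median instead moved the median difference of all probe sets by 0.29 on the log2 scale, and quantile normalization moved it by 0.15. Across probe sets, arrays of 1 fraction correlated at r = 0.956 to 0.967 and arrays of different fractions at r = 0.901 to 0.911. The 3' to 5' log2 ratio of the rat control transcripts, which follows RNA integrity, averaged 0.69 ± 0.03 over the 3 IMCD arrays and 1.35 ± 0.14 over the 3 nonIMCD arrays (SD). It moved with the fractions beside every difference given here, and its part in them was not tested.

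Atp1b1, the beta subunit that accompanies the catalytic subunit in most kidney tubules, had an intensity of 47159, 53914 and 51851 on the IMCD arrays and of 38700.5, 45645 and 45935 on the nonIMCD arrays. All 3 IMCD arrays lay above all 3 nonIMCD arrays. The log2 difference was 0.23 ± 0.14 (SE, 95% interval -0.10 to 0.57) and did not pass limma's test (adjusted p = 0.283). The dimmer Atp1b1 probe set had 36690.0, 38789 and 39197 in IMCD and 28369.9, 31885 and 32415 in nonIMCD, again without overlap. Its difference was 0.31 ± 0.12 (SE, adjusted p = 0.133). The brightest probe set of each array reached 70016 to 111657, so both Atp1b1 probe sets read in the upper part of the scale. With each array centred on its median both probe sets passed (0.52, adjusted p = 0.0347, and 0.60, adjusted p = 0.0162, for the dimmer one). The dimmer one also passed after quantile normalization (0.42, adjusted p = 0.0445) and with an intensity trend (0.31, adjusted p = 0.0394).

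Atp1b2, known as the adhesion molecule on glia and as the beta subunit of many neural cells, was lower in IMCD. Its brighter probe set had 776, 905 and 762 in IMCD and 4320, 4508 and 3496 in nonIMCD. No array overlapped, and the spread within a fraction was small beside the gap. The difference was -2.31 ± 0.16 (SE, adjusted p = 0.000595). The dimmer Atp1b2 probe set read 33.0, 121 and 57.0 in IMCD and 199, 534 and 109 in nonIMCD, close to the negative controls in IMCD. There the arrays overlapped, and the difference of -1.64 ± 0.64 did not pass (SE, adjusted p = 0.129).

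Atp1b3, a widely expressed beta subunit, had 13957, 13951 and 14967 in IMCD and 17842, 19930 and 19687 in nonIMCD. The IMCD arrays were the lower ones, without overlap. The difference of -0.42 ± 0.12 (SE, 95% interval -0.72 to -0.13) narrowly missed the threshold (adjusted p = 0.0562). It passed after quantile normalization (-0.59, adjusted p = 0.0185) and had its smallest value with median centring (-0.13, adjusted p = 0.461).

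FXYD genes gave the widest range of differences. Fxyd4 (also called CHIF), the FXYD protein of the collecting duct, which raises the affinity of the pump for sodium, read 39254, 43481 and 45975 in IMCD. On the nonIMCD arrays it read 21495, 23008 and 27825. Every IMCD array was above every nonIMCD array, and the difference was 0.84 ± 0.15 (SE, adjusted p = 0.0141). Its IMCD values lay in the upper part of the scale, as those of Atp1b1 did. The effect of this on the size of the difference was not tested. The call was lost without nonIMCD replicate 1 (0.76, adjusted p = 0.0515). It was kept without each of the other 5 arrays (adjusted p = 0.0174 to 0.0497). It was just inside the threshold without IMCD replicate 2 or 3 (both 0.0497) or nonIMCD replicate 2 (0.0494).

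Fxyd5 (dysadherin), a glycosylated FXYD protein known to weaken cell adhesion, was at 436, 369 and 558 in IMCD and at 7010.32, 7055 and 7587 in nonIMCD. All 6 values lay above the highest negative control, so the level in IMCD was low but measured. The difference was -3.96 ± 0.18 (SE, adjusted p = 0.000256). Among the 8 genes, Fxyd5 had the largest difference.

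Fxyd2, the gamma subunit of the pump, had 15104, 14004 and 16865.0 in IMCD and 19848, 24417 and 22486 in nonIMCD. The IMCD arrays lay below the nonIMCD arrays without overlap. The difference was -0.54 ± 0.15 (SE, adjusted p = 0.0488), just inside the threshold. With the replicate numbers as a block it had adjusted p = 0.1, and with any 1 array left out adjusted p was 0.0711 to 0.137 (-0.62 to -0.47). With median centring it was -0.25 (adjusted p = 0.263).

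Fxyd1 (phospholemman), the pump regulator of heart and muscle, read 136, 97.7 and 26.0 in IMCD and 206, 130.02 and 166 in nonIMCD. These values reached down to the negative controls, and the arrays overlapped. The difference of -1.01 ± 0.50 (SE, 95% interval -2.23 to 0.22) did not pass (adjusted p = 0.215). Without IMCD replicate 3 it was -0.46, and without any 1 other array it lay between -1.39 and -0.86 (adjusted p = 0.132 to 0.392 over the 6).

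In RefSeq's annotation of the GRCr8 assembly, Fxyd5, Fxyd7 and Fxyd1 follow each other on chromosome 1 with 0 protein-coding genes between neighbours. Of these neighbours, Fxyd5 was called, whereas Fxyd1 and Fxyd7 did not pass. Fxyd1 reached down to the negative controls. Fxyd7 had means of 62.1 in IMCD and 56.2 in nonIMCD, under the highest negative control (78.4). Their not passing therefore does not set them apart from Fxyd5. Fxyd2 and Fxyd6 are likewise neighbours on chromosome 8. Fxyd6 had 44.7, 116 and 114 in IMCD and 148, 334 and 265 in nonIMCD, a difference of -1.32 ± 0.42 (SE, adjusted p = 0.0788). It passed with the replicate numbers as a block (adjusted p = 0.0191).

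The 250 bases before the start site are printed for Fxyd5 and Atp1b2, which had the largest differences among the genes called lower in IMCD, and for Fxyd4, the 1 gene called higher, so that the promoters of genes that differ in direction can be read side by side. They come from RefSeq with GRCr8 coordinates, chr1:95404723-95404972, minus strand, for the more upstream of the 2 Fxyd5 starts, chr10:54823709-54823958, minus strand, for Atp1b2, and chr4:152786046-152786295, minus strand, for Fxyd4. Capitals mark matches, on either strand, to TATAAA (the TATA box), CCAAT (bound by NF-Y), GGGCGG (the GC box), AGAACA (bound by steroid receptors in part), AGATAA (bound by GATA factors) and TGACGTCA (the cAMP response element).
Fxyd5: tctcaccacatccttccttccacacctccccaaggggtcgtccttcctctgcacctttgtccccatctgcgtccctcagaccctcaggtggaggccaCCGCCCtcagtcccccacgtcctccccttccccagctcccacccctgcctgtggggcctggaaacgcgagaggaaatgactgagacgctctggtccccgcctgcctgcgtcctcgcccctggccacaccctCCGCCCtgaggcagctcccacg
Atp1b2: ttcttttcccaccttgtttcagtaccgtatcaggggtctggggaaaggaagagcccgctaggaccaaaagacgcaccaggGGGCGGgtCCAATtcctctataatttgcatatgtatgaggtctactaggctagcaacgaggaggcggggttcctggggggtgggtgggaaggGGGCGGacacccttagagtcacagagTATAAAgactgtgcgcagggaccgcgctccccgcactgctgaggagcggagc
Fxyd4: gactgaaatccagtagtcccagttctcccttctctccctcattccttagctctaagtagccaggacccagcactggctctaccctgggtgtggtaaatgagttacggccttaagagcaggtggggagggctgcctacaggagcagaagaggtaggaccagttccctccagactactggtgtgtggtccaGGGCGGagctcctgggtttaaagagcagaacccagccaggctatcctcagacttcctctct
The table of promoters held 7 starts of 6 of the 8 genes. Fxyd4 had 1 GC box, 61 bases before the start. The printed Fxyd5 window had 2, at 153 and 22 bases, both on the opposite strand. The window of the other Fxyd5 start had no match to any of the motifs. Atp1b2 had 2 GC boxes, at 170 and 78 bases, a CCAAT at 162 bases and a TATAAA at 52 bases. Of 33469 promoter windows of this length, 30.5% held GGGCGG, 34% CCAAT, 12.9% TATAAA, 17.5% AGAACA, 10.3% AGATAA and 1.59% TGACGTCA. The last 3 motifs had no match in the windows of these 3 genes. The Fxyd4 window held 2 CG dinucleotides and was 55.6% G and C. The windows of the other 5 genes held 10 to 48 CG dinucleotides (Slc12a2 48, Atp1b3 38, Atp1b2 and Fxyd1 12, and the Fxyd5 starts 12 and 10). The median over all windows was 5. A match or its lack describes these letters only.

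Slc12a2 was lower in IMCD. It read 3112, 2534 and 3426 on the IMCD arrays and 4582, 4996 and 4733 on the nonIMCD arrays, without overlap. The difference was -0.67 ± 0.15 (SE, adjusted p = 0.0305). With the replicate numbers as a block it had adjusted p = 0.0788, and with median centring -0.38 (adjusted p = 0.134). Without IMCD replicate 3 it still passed (-0.76, adjusted p = 0.0422), and without any other single array it did not (-0.69 to -0.54, adjusted p = 0.0724 to 0.0881).

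**Figure D2:**
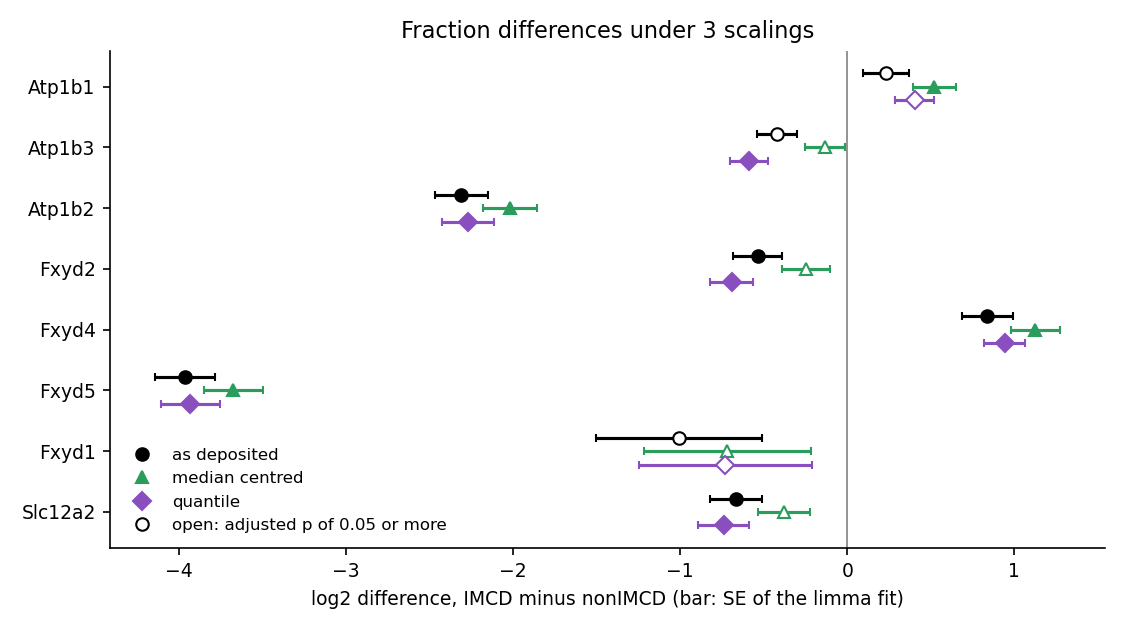
Log2 difference, IMCD minus nonIMCD, of each gene's brightest probe set with its SE, for the values as deposited (circles), centred on each array's median (triangles) and quantile normalized (diamonds); open symbols have an adjusted p of 0.05 or more. The direction of all 8 genes is the same under the 3 scalings, and Fxyd5, Atp1b2 and Fxyd4 pass under each.

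The equal replicate numbers gave the same direction in each of the 3 number-matched pairs for all 10 probe sets. For the 8 whose fractions were fully apart, any matching of the arrays must give this. The same holds for the 42.2% of all probe sets that were fully apart. For Fxyd5 the differences were -3.96, -4.20 and -3.73 for numbers 1, 2 and 3, and for Atp1b2 -2.45, -2.30 and -2.17. For Fxyd4 they were 0.87, 0.92 and 0.72. Fxyd2 and Slc12a2 had their largest difference in number 2 (-0.80 and -0.98) and smaller ones in numbers 1 and 3 (-0.39 and -0.41 for Fxyd2, -0.56 and -0.46 for Slc12a2). For Fxyd1 they were -0.55, -0.36 and -2.11.

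Ratios between probe sets of 1 array are unchanged when the whole array is multiplied by 1 factor, apart from the added 16, but quantile normalization moved them (Atp1b1 over Atp1b3 from a difference of 0.65 to 0.99, Fxyd2 over Fxyd4 from -1.37 to -1.63), with no change of direction. The ratio of Atp1b1 over Atp1b2 shifted 5.82-fold, with its log2 going from 3.40 ± 0.28 in nonIMCD to 5.94 ± 0.10 in IMCD (SD, n = 3). Atp1b1 over Atp1b3 shifted 1.57-fold, with its log2 going from 1.18 ± 0.05 in nonIMCD to 1.83 ± 0.10 in IMCD (SD, n = 3), although neither gene passed alone. Atp1b2 over Atp1b3 had an IMCD minus nonIMCD difference of -1.89 in the log2 ratio. Among the FXYD genes, Fxyd4 over Fxyd5 shifted the most, 27.8-fold, with its log2 going from 1.73 ± 0.13 in nonIMCD to 6.53 ± 0.26 in IMCD (SD, n = 3). The difference of the log2 ratio was 3.43 for Fxyd2 over Fxyd5 and -1.37 for Fxyd2 over Fxyd4. It was 2.96 for Fxyd1 over Fxyd5 and -1.84 for Fxyd1 over Fxyd4, and without IMCD replicate 3, where Fxyd1 read 26.0, these were 3.66 and -1.24. In 8 of the 9 pairs compared the fractions did not overlap. This gives p = 0.1 in a two-sided exact permutation test, the smallest that 3 against 3 arrays allow (0.1125 after Benjamini-Hochberg adjustment over the 9 pairs). The pairs share genes, and each ratio difference follows from the differences of its 2 genes, so the count is no separate result. The share among pairs of other genes was not computed. Fxyd1 over Fxyd2 overlapped (-0.47, exact p = 0.7), and its sign turned without IMCD replicate 3 (0.15).

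**Figure D3:**
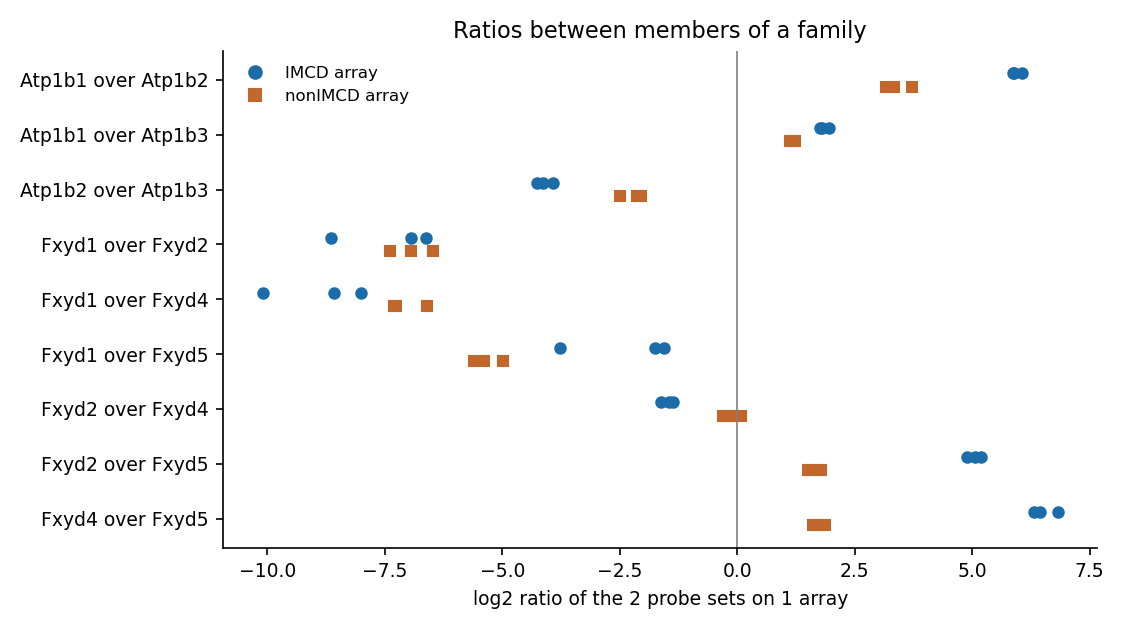
Log2 ratio of the first over the second probe set on each array, for the 3 pairs of beta subunits and the 6 pairs of FXYD genes, with circles for IMCD and squares for nonIMCD arrays. The position of a pair on the axis depends on its probes and only the shift between the fractions is comparable; the fractions are apart in every pair except Fxyd1 over Fxyd2.

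Other genes of the pump, its relatives and its regulators came from a list of 44 genes, of which 37 were measured by a probe set with a single symbol. Of the 37, 5 were higher in IMCD, 7 were lower and 25 did not pass, with a median log2 difference of -0.12, beside 25.8% called and a median of -0.09 over all genes. With the replicate numbers as a block 3 were higher and 7 lower, and with median centring 6 were higher and 5 lower. The number higher was also 3 without IMCD replicate 1, IMCD replicate 2 or nonIMCD replicate 2. Of the 4 alpha subunits listed, Atp1a4, known from testis, was the only one named in this way. Its means of 19.7 in IMCD and 7.34 in nonIMCD lay within the range of the negative controls (adjusted p = 0.182), and the other alpha subunits were not analysed here. Atp1b4 (adjusted p = 0.327) and the 3 H,K-ATPase genes Atp4a, Atp4b and Atp12a (adjusted p = 0.0534, 0.443 and 0.51) did not pass, with means of at most 109 in either fraction. Neither did Fxyd3 (adjusted p = 0.585) and Fxyd7 (adjusted p = 0.892).

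Of 7 measured cation-chloride cotransporters besides Slc12a2, 2 were lower, 0 were higher and 5 did not pass. Among all genes 15.7% were lower and 10.0% higher. Both lower genes encode potassium-chloride cotransporters, which carry these ions out of the cell. Slc12a4 had 380, 287 and 335 in IMCD and 1319, 1464 and 1364 in nonIMCD, a difference of -2.01 ± 0.15 (SE, adjusted p = 0.000758). Slc12a7 had 1340.3, 1291 and 1496 in IMCD and 2997, 3182 and 3069 in nonIMCD, a difference of -1.16 ± 0.12 (SE, adjusted p = 0.00224), with a second, dim probe set at 1.05 (adjusted p = 0.175). In both, the fractions were apart. Slc12a1, the furosemide-sensitive cotransporter of the thick ascending limb, varied widely within IMCD (312, 1596 and 2280) and did not pass (-1.37, adjusted p = 0.261). Without IMCD replicate 1, its lowest array, the difference was -0.52 (adjusted p = 0.4).

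Kinases and ubiquitin ligases that act on these transporters divided, with 4 of 12 higher, 2 lower and 6 not passing. Nedd4l, a ubiquitin ligase that removes transporters from the membrane, was higher by 0.82 ± 0.14 (SE, adjusted p = 0.0116). Sgk1, an aldosterone-induced kinase that raises sodium transport, had 29089.9, 28899 and 27801 in IMCD and 15964, 16907 and 17547 in nonIMCD, without overlap (0.77, adjusted p = 0.00721). Klhl3, the adaptor that leads WNK kinases to degradation, was higher by 0.77 (adjusted p = 0.029), with adjusted p = 0.0582 in the blocked fit. Stk39 (SPAK), the kinase that activates NKCC1 and was named after its values were seen, was higher by 0.76 (adjusted p = 0.0197) in 1 probe set and by 0.62 (adjusted p = 0.0183) in the other. The blocked fit gave Stk39 adjusted p = 0.0615. Klhl3 lost its call without any 1 of 5 arrays, all but nonIMCD replicate 3, and Stk39 without IMCD replicates 1, 2 or 3 or nonIMCD replicate 2.

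The related kinase Sgk3 was lower (-1.42 ± 0.12, SE, adjusted p = 0.00104), as was Wnk1, which activates Stk39 (-0.99 ± 0.20, SE, adjusted p = 0.0185). Wnk1 had 3638, 3752 and 2709 in IMCD and 7221, 7326 and 5548 in nonIMCD. It lost its call without nonIMCD replicate 1 (adjusted p = 0.0657) or 2 (adjusted p = 0.0626) and with median centring (-0.70, adjusted p = 0.0517). The 4 dimmer Wnk1 probe sets did not pass (-1.04 to -0.29). Of 7 genes that anchor the pump to the membrane skeleton, 2 were lower and 5 did not pass, beside 15.7% lower among all genes. The lower ones were the ankyrin Ank2 (-1.27, adjusted p = 0.00483) and the adducin Add3 (-0.59, adjusted p = 0.0257). Add3 had adjusted p = 0.0541 in the blocked fit and lost its call without any 1 of 5 arrays, all but nonIMCD replicate 3. The dimmer probe sets of Ank2 (-0.66 and 0.24) and Add3 (-0.45) did not pass. Ank3, the ankyrin of epithelia, did not pass (adjusted p = 0.858).

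Of 3 measured genes of chloride exit, Clca4, of the family of calcium-activated chloride channel regulators, read 10095, 7543 and 11255 in IMCD and 1431, 845 and 1675 in nonIMCD. The difference was 2.89 ± 0.30 (SE, adjusted p = 0.00216). Ano1, a calcium-activated chloride channel, was lower, with 165, 120.2 and 183 in IMCD and 1125, 723 and 649 in nonIMCD (-2.28 ± 0.26, SE, adjusted p = 0.00293). Cftr, the cAMP-regulated chloride channel, was near the negative controls in both fractions (adjusted p = 0.492).

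**Figure D4:**
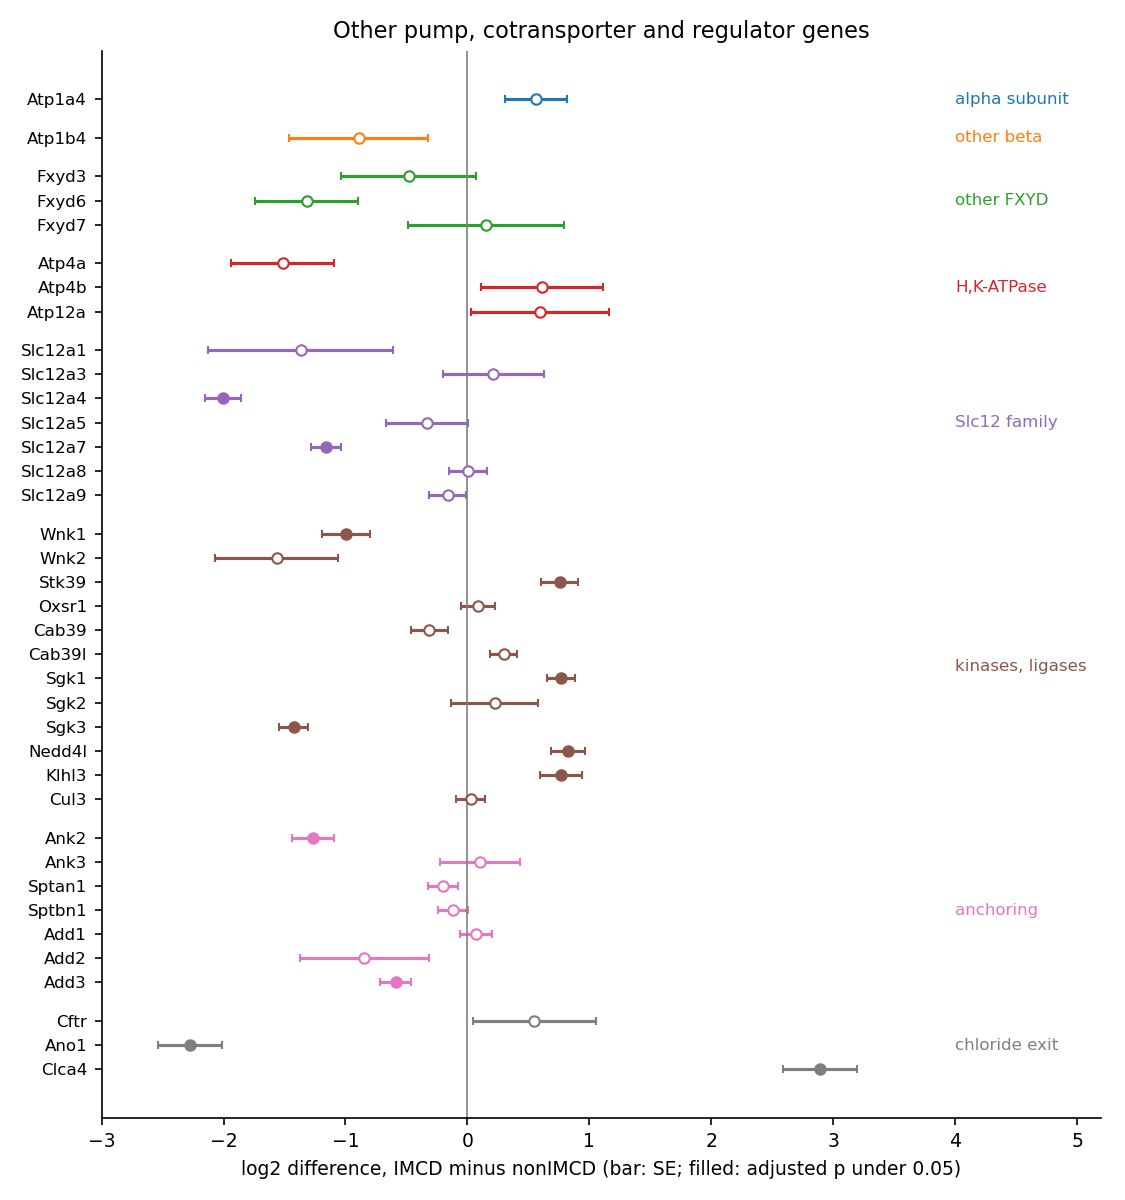
Log2 difference, IMCD minus nonIMCD, with its SE for the 37 measured genes of the list, coloured by role; filled symbols passed the threshold and open ones did not. Of the filled symbols 5 lie to the right of 0 (among them Clca4 and Sgk1) and 7 to the left (among them Ano1 and Slc12a4).

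Of 65 measured markers of cell types 12 were higher in IMCD, 31 were lower and 22 did not pass. Over all genes 10.0% were called higher and 15.7% lower, and the counts of each list stand beside these shares. Of 10 principal cell markers of the collecting duct 9 were higher in IMCD, with a summed intensity of 196797 to 208017 in IMCD and 89224 to 118669 in nonIMCD. Aqp2, Aqp3 and Aqp4 made most of these sums, and the median log2 difference of the list was 1.77. Aqp2 did not pass (means of 52574 in IMCD and 43299 in nonIMCD, adjusted p = 0.261). Values in nonIMCD are thus not those of cells outside the collecting duct alone. Of 9 leukocyte markers 8 were lower, with sums of 3679 to 5473 in IMCD and 100218 to 108173 in nonIMCD, and 4 of the 9 were no brighter than the negative controls in IMCD. All 8 endothelial markers were lower, with 13706.5 to 17520.1 against 66042 to 73110.1. The 3 thin limb markers were lower (4571 to 7194 against 59569 to 82221), as were the 3 erythroid ones (747 to 3040.09 against 29645 to 87145). Of 7 thick ascending limb markers 3 were lower and 4 did not pass (2043 to 6624 against 7208 to 10938), with the lowest sum on IMCD replicate 1. Of 11 interstitial, pericyte and smooth muscle markers 5 were lower and 6 did not pass (2523 to 3180.25 against 5473 to 6302). Of 6 intercalated cell markers 2 were higher and 4 did not pass (9990.22 to 18228 against 4840 to 9493). Of 5 markers of the proximal and distal convoluted tubule 1, Lrp2, was lower (means of 322 in IMCD and 3429 in nonIMCD). Lrp2 made most of their sums (491 to 629 against 2889 to 4105). The others did not pass, had means of at most 97.3 in either fraction, and the median log2 difference of the list was 0.10. Of 3 of glia and nerve 1, the myelin gene Mbp, was higher (means of 4835 in IMCD and 1786 in nonIMCD). Mbp made most of the sums of this list (4641 to 5162 against 1928 to 2012). S100b (means of 63.9 in IMCD and 61.1 in nonIMCD) and Gfap (64.9 and 116) were dim and did not pass. No marker was at an intensity of 0. In fractions measured as bulk RNA, fewer cells of a type and less RNA per cell cannot be told apart, and the part of these cell types in the values of Fxyd5, Atp1b2, Atp1b3, Fxyd2, Slc12a2 and Fxyd4 was not tested.

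**Figure D5:**
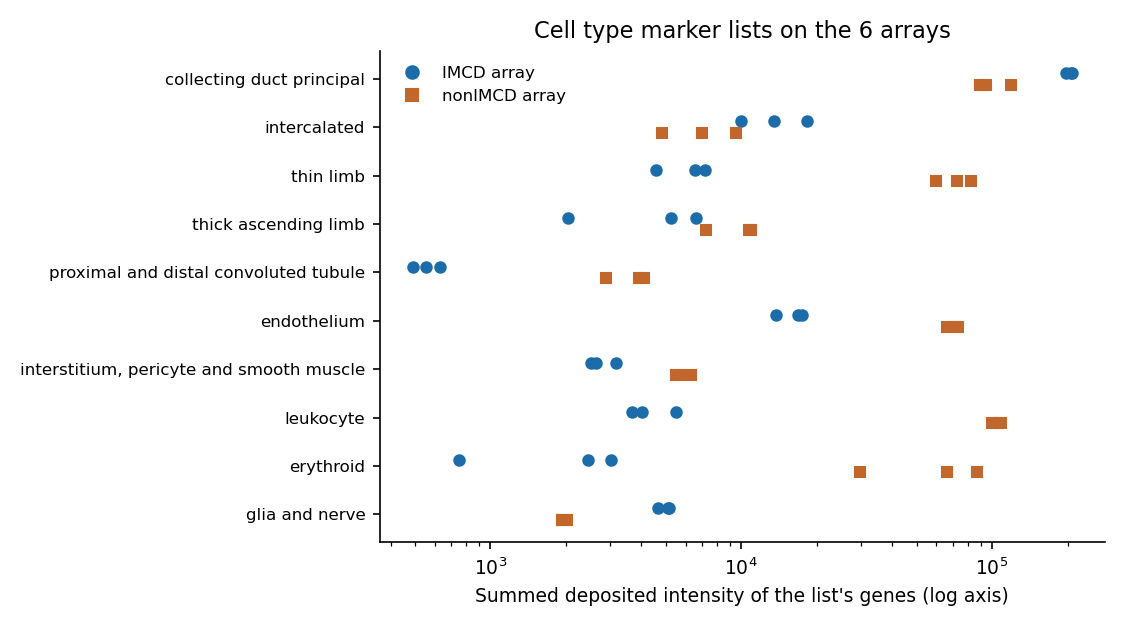
Summed deposited intensity (log axis) of each list of cell type markers on each array, with circles for IMCD and squares for nonIMCD arrays. Leukocyte, thin limb and erythroid sums are the farthest to the right in nonIMCD relative to IMCD, and principal cell sums (196797 to 208017) are to the right in IMCD.

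The likeness of other genes to each member was taken as Pearson's r over the 6 arrays, among 11815 genes with a mean intensity of at least 100 in 1 fraction. As the arrays form 2 clusters, r mainly follows the gap between the fractions, and it is given as a description. For Fxyd5, 12.1% of these genes had r above 0.95, and the closest were Prkcq, Bambi and Smim3 (r = 0.9997, 0.9996 and 0.9993), with log2 differences of -2.88, -1.67 and -3.27. For Atp1b2, with 12.1% above 0.95, they were Sema3e, Irf8 and Slc6a18 (r = 0.9996, 0.9995 and 0.9992). Genes like Fxyd4 (5.53% above 0.95) were Eno1, Vps28 and Defb1 (r = 0.9986, 0.9977 and 0.9975), with differences of 0.60, 0.63 and 1.87. Slc12a2 (3.5%) was closest to Myl9, Asb9 and Cdhr4 (r = 0.9975, 0.9958 and 0.9957). For Atp1b3 (6.76%) the closest were Pdcd7, Zfat and Prorp (r = 0.9978, 0.9974 and 0.9964), and for Fxyd2 (2.18%) Med9, Ppdpf and Brsk1 (r = 0.9957, 0.9932 and 0.9925). Fewer genes followed the members with small or noisy gaps. For Atp1b1 0.279% had r above 0.95, led by Timm17a, Gpd1 and Dhrs4 (r = 0.9979, 0.9939 and 0.9937), and for Fxyd1 0.322%, led by Myog, Rnf41 and Pik3c2b (r = 0.9932, 0.9893 and 0.9871).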

How the data were processed

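Total RNA (about 3 µg per array) was labelled with biotin by the Affymetrix protocol, per the labels' protocols. The authors deposited 1 intensity per probe set and array on a linear scale (read from the values), and the sources used here do not name the software behind them. All 6 columns were matched to samples. Of 31099 probe sets, 57 were array controls and were dropped. Of the 31042 tested, 20826 had 1 gene symbol in the platform annotation of 2016, 436 had several and 9780 had none; 20758 of the single symbols were found by gene identifier in RefSeq (GRCr8), with 0 changed. A gene with several probe sets was represented by the one with the highest mean log2 value. Values were analysed as log2(intensity + 16) by lmFit and eBayes of limma 3.58.1 under R 4.3.3 (3 against 3 arrays, two-sided p, no low-value filter), which was tested on simulated data, with Benjamini-Hochberg adjustment over all 31042 probe sets. The 3 probe sets of the unspiked control TrpnX (1.55 to 78.4) served as negative controls. Precision is limited by the number of arrays.

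The study's text gives 3 pairs of fractions without saying which arrays form them. Deviations from the group means of arrays with the same number correlated at r = 0.135, 0.218 and 0.272 over 16673 probe sets. Other combinations had r = -0.208 to 0.0122. Deviations sum to 0 within a fraction, so these low values follow in part from the positive ones and are no separate support. For the blocked fit the numbers were taken to pair the arrays, although the ages labelled for number 1 differ (6 and 10 weeks). The main fit has no block, and the blocked value is given where it changes a call.

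The members and lists were chosen with earlier results of these data known. All 8 members were named with every probe set. From the pathway list every measured alpha subunit and FXYD gene was named, and up to 3 genes per direction and role with the largest difference past the threshold; others were named after their values were seen. For likeness, the 3 genes with the highest Pearson r with each member were named. Alternatives were other pseudocounts (1 and 64), dim probe sets (mean under 100 in both fractions) left out, median centring, quantile normalization, an intensity trend, the replicate block, the mean of a gene's probe sets, and each array left out. Figures used matplotlib 3.10.9 in Python 3.11.15.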

Additional observations from a re-analysis of the deposited data

How the results depend on the processing

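No member's difference changed direction under any of its 14 alternatives, and Fxyd5, Atp1b2 and Fxyd1 kept their side of the threshold in all. Centring on array medians brought Atp1b1 past it (0.52, dimmer probe set 0.60) and took Fxyd2 (-0.25) and Slc12a2 (-0.38) out of it. Atp1b3 passed with a pseudocount of 64 (-0.42), without dim probe sets (-0.42), with an intensity trend (-0.42) and after quantile normalization (-0.59). Fxyd2 did not pass with a pseudocount of 1 (-0.54) or the replicate block (-0.54), nor Slc12a2 with the replicate block (-0.67); the block changed no other member's call. Without 1 array, values ranged from -0.62 to -0.47 for Fxyd2, from -0.76 to -0.54 for Slc12a2, from 0.76 to 0.94 for Fxyd4 and from -1.39 to -0.46 for Fxyd1. The log2 ratio of Fxyd1 over Fxyd2 turned to 0.15 without IMCD replicate 3 (range -0.86 to 0.15), and the other 8 ratios kept their direction, with 2.56 to 3.66 for Fxyd1 over Fxyd5 and -2.28 to -1.24 for Fxyd1 over Fxyd4. Higher genes of the list numbered 3 with the replicate block and 3 to 5 without 1 array (5 as reported), and lower ones 4 with the mean of a gene's probe sets and 10 with a pseudocount of 64 or an intensity trend (7 as reported); median centring gave 6 higher and 5 lower. Over all probe sets, 2663 were higher and 4163 lower, with 5389 and 2652 under median centring; higher calls were 39% of calls as deposited, 67% under median centring and 52.1% after quantile normalization. Without 1 array 1537 to 2248 were higher and 2647 to 3221 lower. The cause of these changes was not tested. Dim signals limit Fxyd1 and the dimmer Atp1b2 probe set.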
